A study of Mus musculus with 66 samples.

Results

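The interleukin-1 (IL-1) family and its receptors were described through 10 genes picked by symbol: the ligands Il1a, Il1b, Il18 and Il33, the receptor antagonist Il1rn, and the receptor genes Il1r1, Il1r2, Il1rap, Il1rl1 and Il18r1. They are 10 of the 30452 genes in the deposited table, and 42 of their transcripts held values. The table covers 66 bulk RNA samples from 19 wild-type C57Bl/6 mice, obtained at 6 weeks of age. Colitis was set off with 3% dextran sulfate sodium (DSS), a detergent-like polymer that damages the colonic lining, given over 6 days starting at day 0. Mid-colon, rectum and anus were taken from 4 uninjured mice at day 0 and from 3 mice each at days 3, 6, 9, 14 and 20. A separate section of squamous neo-epithelium came from the 9 mice of days 9, 14 and 20, which makes 21 groups in all. The mice of day 3 were therefore still within the DSS course, those of day 6 at its end, and the later ones past it. No genotype, transgene or second treatment distinguished the groups, and 1 sample is 1 section of 1 mouse. Different mice were killed at each day, so p-values of comparisons between days measure the spread between mice. Comparisons between sections share mice, and their main fits held no term for the mouse, so their p-values ignore this pairing.

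IL-1 alpha and IL-1 beta both signal through the receptor encoded by Il1r1, which needs the accessory chain encoded by Il1rap. Il1rn encodes an antagonist that occupies this receptor without signalling, and Il1r2 encodes a decoy that binds IL-1 but lacks the signalling domain. IL-33 is an alarmin held in the nuclei of barrier and stromal cells and acts through ST2, the product of Il1rl1, again with the Il1rap chain. IL-18 is made by resting gut epithelium, is cut to its active form by caspase-1, as is IL-1 beta, and acts through the receptor chain encoded by Il18r1.

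The sections matched their labels by marker genes. The summed level of 6 squamous markers was 7698 to 22210 TPM in anus and 11470 to 25930 TPM in neo-epithelium, against 3.43 to 21.8 TPM in mid-colon and 6.42 to 766 TPM in rectum. TPM is a length-adjusted relative abundance that sums to 1000000 in each sample. The 6 colonocyte markers summed to 4441 TPM or more in every mid-colon and rectal sample. In anus they summed to 1208 to 3808 TPM at day 0 and 2339 to 4958 TPM at day 3, but to 20.7 to 51.9 TPM at days 6 and 9, ranges that do not overlap. Skeletal muscle markers summed to 832 to 9318 TPM in anus, although the muscle layer was to be removed. No read counts were given, so the depth is unknown. Between 11268 and 13789 genes reached 1 TPM per sample, and mitochondrial genes held 6.26 to 28.5% of the TPM. In bulk tissue, a lower share of a cell type and less RNA per cell of that type cannot be told apart.

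The 10 genes lie in 6 places of the GRCm38 assembly. Il1r2 (40074079 to 40125231), Il1r1 (40225080 to 40317257), Il1rl1 (40429570 to 40465415) and Il18r1 (40465552 to 40500854) lie in this order on the forward strand of chromosome 1, together with Il1rl2 and Il18rap, and 137 bp separate the annotated end of Il1rl1 from the start of Il18r1. Il1a (129299610 to 129309972) and Il1b (129364570 to 129371139) are neighbours on the reverse strand of chromosome 2. Il1rn lies elsewhere on chromosome 2 (24336853 to 24351494), next to the genes of the IL-36 ligands. Il18 is on chromosome 9 (50554827 to 50581840), Il1rap on chromosome 16 (26581704 to 26730117) and Il33 on chromosome 19 (29925114 to 29960718).

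RefSeq promoter windows (GRCm38.p6) were found for 10 of the 10 genes, 17 windows in all. They were searched for the letters TATAAA, the core of the TATA box, in the 250 bases before the start. The 120 bases before the start are shown 5′ to 3′ on the gene's strand, with TATAAA in capitals. They are shown for the 3 windows that held it 25 to 40 bases before the start, and for Il18.
Il1a, chr2:129309973-129310092, reverse strand: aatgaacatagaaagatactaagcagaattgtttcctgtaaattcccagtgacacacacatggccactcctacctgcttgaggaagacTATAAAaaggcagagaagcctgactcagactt
Il1b, chr2:129371140-129371259, reverse strand: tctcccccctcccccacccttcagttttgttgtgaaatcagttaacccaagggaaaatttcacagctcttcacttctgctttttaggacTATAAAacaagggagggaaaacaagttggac
Il33 downstream start, chr19:29945670-29945789, forward strand: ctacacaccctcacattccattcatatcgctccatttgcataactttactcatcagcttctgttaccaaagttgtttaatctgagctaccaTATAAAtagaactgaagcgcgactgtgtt
Il18, chr9:50554580-50554699, forward strand: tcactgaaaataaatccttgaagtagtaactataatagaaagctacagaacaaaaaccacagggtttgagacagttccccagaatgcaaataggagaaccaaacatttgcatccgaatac
The motif began 32 bases before the start in Il1a, 31 in Il1b and 29 at the downstream start of Il33. On the gene's strand, 4 of the 17 windows held it, the fourth being that of the upstream start of Il33, where it lies more than 120 bases before the start. Of all 32851 windows, 7.59% held it on that strand. On either strand it was in 5 of the 17 and in 12.4% of all windows. At 25 to 40 bases before the start it was in 3 of the 17 and in 1.91% of all. These matches describe letters only. No window of Il1r2, Il1rl1, Il1rn, Il1r1 or Il1rap held the motif on the gene's strand. The Il1r2 window ends at 40086092. The Il1r2 transcripts with the highest mean levels are annotated from 40084792 and 40074079, so it does not lie at their start. The part of the motif in the members' levels was not tested. The Il18 window shown holds none. It ends at 50554699, while both Il18 transcripts with values are annotated from 50575273, so it does not lie at their start.

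Il1b was the member with the highest level reached in rectum. Its rectal values were 0.185, 0.0777, 0.327 and 0.498 TPM at day 0 and 3.41, 0.51 and 0.742 TPM at day 3. They were 57.0, 111 and 377 TPM at day 6 and 326, 1592 and 1603 TPM at day 9. They were 52.25, 395 and 982 TPM at day 14 and 24.2, 111 and 1.68 TPM at day 20. Every rectal sample from day 6 on was above every uninjured one, and the mice of a day differed widely from each other from then on. On the log2(TPM + 1) scale, which understates changes of low genes, the difference from day 0 was 6.74 ± 0.52 (SE) at day 6, 9.54 ± 0.51 at day 9 and 7.76 ± 0.84 at day 14. The adjusted p-values were 9.92e-05, 2.81e-06 and 0.00451 (limma, Benjamini-Hochberg), and at day 20 the difference of 3.96 ± 1.03 missed the threshold of 0.05 (adjusted p = 0.0535).

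Mid-colon and anus showed Il1b at lower peaks. In mid-colon it went from 0.218 to 0.571 TPM at day 0 to 7.85, 11.1 and 25.4 TPM at day 6, 51.4, 188 and 26.7 TPM at day 9 and 21.2, 81.8 and 97.1 TPM at day 14. It rose there by 3.32 ± 0.33, 5.52 ± 0.51 and 5.32 ± 0.45 on the log2 scale (adjusted p = 0.000577, 3.35e-05 and 0.00166). In anus it went from 0.698 to 4.10 TPM at day 0 to 246, 451 and 60.8 TPM at day 6. The anal values of day 9 were 6.17, 151 and 21.4 TPM, and no anal sample of days 6 to 20 fell inside the uninjured range. The anal rise was called at day 6 (5.86 ± 0.63, adjusted p = 0.000842), day 14 (5.04 ± 0.93, adjusted p = 0.0238) and day 20 (4.07 ± 0.73, adjusted p = 0.0425), but not at day 9 (3.15 ± 0.88, adjusted p = 0.0838). The day 14 call was lost without mouse 2, 4 or 14 (adjusted p = 0.0712, 0.0524 and 0.0572) and the day 20 call in 6 of 7 fits that left out 1 mouse (up to 0.155).

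**Figure D1:**
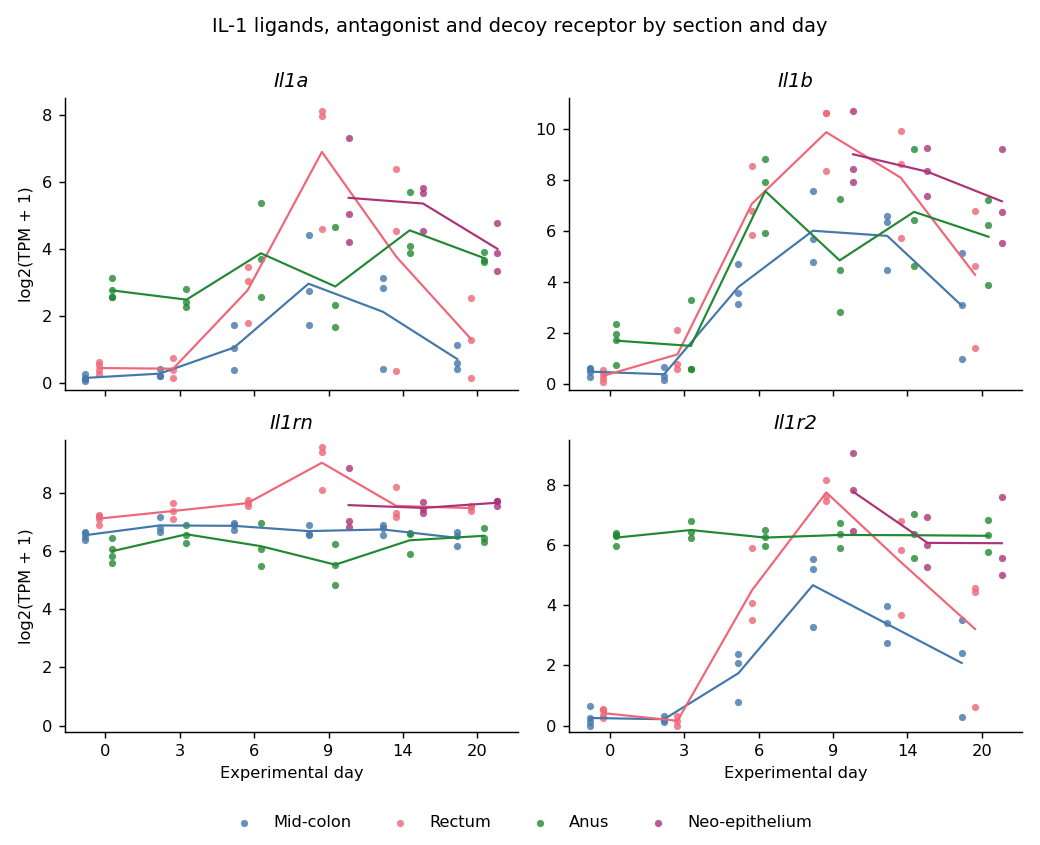
Level of Il1a, Il1b, Il1rn and Il1r2 as log2(TPM + 1) against experimental day (unevenly spaced days drawn as categories), 1 point per sample, with lines through group means, for mid-colon, rectum, anus and neo-epithelium. Il1b and Il1r2 climb from near 0 in rectum and mid-colon to a peak at day 9, while Il1r2 stays between 46.4 and 129 TPM in anus and Il1rn starts above 47 TPM in each section.

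Il1a, the other IL-1 receptor agonist, was rectal at its peak too, but present in anus before injury. Uninjured anus held 4.87 to 7.70 TPM, against 0.196 to 0.537 TPM in rectum and 0.0411 to 0.206 TPM in mid-colon. Rectal values were 2.43, 7.28 and 9.91 TPM at day 6 and 23.3, 273 and 250.3 TPM at day 9. They were 0.287, 22.4 and 82.3 TPM at day 14, where mouse 14 lay inside the uninjured range and the others far above it. The rectal rise was 2.31 ± 0.35 on the log2 scale at day 6 (adjusted p = 0.00163) and 6.45 ± 0.74 at day 9 (adjusted p = 0.000142). The call of day 6 was lost when all days of the rectum shared 1 estimate of the spread (adjusted p = 0.0936). Mid-colon rose at day 9 by 2.81 ± 0.49 (adjusted p = 0.00118), with samples at 5.64, 20.4 and 2.32 TPM. In anus no day passed the test, with differences between -0.28 and 1.79 and adjusted p-values of 0.0521 or more.

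Il1rn, the receptor antagonist, was abundant without injury. Its day 0 level was 119 to 149.9 TPM in rectum, 82.4 to 100.4 TPM in mid-colon and 47.1 to 86.7 TPM in anus. In rectum it reached 186, 198 and 213 TPM at day 6 and 273, 762 and 680.0 TPM at day 9, and all 6 samples were above the uninjured ones. The rise was 0.53 ± 0.10 at day 6 (adjusted p = 0.00445) and 1.92 ± 0.32 at day 9 (adjusted p = 0.00102). When all days of the rectum shared 1 estimate of the spread, the day 6 rise was no longer called (adjusted p = 0.145). Mid-colon held 93.2 to 119 TPM at day 9 (0.14 ± 0.15, adjusted p = 0.484) and anus 27.6 to 74.3 TPM (-0.46 ± 0.33, adjusted p = 0.511).

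Since TPM is per length, the antagonist and Il1b can be set side by side. The ratio of Il1rn to Il1b TPM was 301 to 1755 in uninjured rectum, 144 to 450.4 in uninjured mid-colon and 16.3 to 67.5 in uninjured anus. In rectum it was 0.564 to 3.27 at day 6 and 0.424 to 0.836 at day 9, so Il1b was above its antagonist in each sample of day 9. In mid-colon at day 9 it was 0.632, 1.85 and 3.49 (lowest, median and highest), and in anus at day 6 it was 0.267 to 0.718. In neo-epithelium the 9 values ran from 0.281 to 4.07. These are ratios of RNA levels and were not tested.

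Il1r2, the decoy receptor, differed widely between sections before injury. Uninjured anus held 83.0, 78.4, 77.2 and 61.2 TPM, while uninjured rectum held 0.425, 0.178, 0.458 and 0.282 TPM and uninjured mid-colon 0 to 0.551 TPM. In rectum it was 10.2, 15.9 and 58.1 TPM at day 6, 282, 172 and 196 TPM at day 9 and 11.7, 55.4 and 110.4 TPM at day 14. At day 9 the rectum thus exceeded each anal sample of any day in the gene's summed TPM. The rectal rise was 4.07 ± 0.48 at day 6, 7.32 ± 0.19 at day 9 and 5.02 ± 0.63 at day 14 (adjusted p = 0.000567, 6.99e-08 and 0.00634). Mid-colon followed at 44.7, 35.5 and 8.66 TPM at day 9 (4.41 ± 0.46, adjusted p = 5.93e-05) and 5.65, 9.49 and 14.8 TPM at day 14 (3.12 ± 0.29, adjusted p = 0.00202).

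In anus Il1r2 stayed between 46.4 and 129 TPM over all 15 injured samples. Its difference from day 0 ranged from 0.00 ± 0.18 at day 6 to 0.25 ± 0.18 at day 3, and no adjusted p was under 0.881. The gene beside it, Il1r1, encodes the signalling receptor, and its levels were low: 2.03 to 2.65 TPM in uninjured rectum and 1.70 to 3.87 TPM in uninjured anus. The ratio of Il1r2 to Il1r1 TPM was 0.0859 to 0.213 in uninjured rectum, 17.1 to 43.3 in rectum at day 9 and 16.3 to 46.2 in uninjured anus. This ratio counts every Il1r2 transcript, of which an annotated target of nonsense-mediated decay held 42.5 to 76.6% in the 46 samples with at least 5 TPM of the gene. The Il1r2 transcript of 410 codons was 12.3 to 14.3 TPM in uninjured anus, 0 to 0.371 TPM in uninjured rectum and 10.6 to 20.6 TPM in rectum at day 9, so the ratio is not one of complete decoy to signalling receptor.

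Il1r1 rose in rectum at day 9, to 16.5, 3.99 and 9.85 TPM (1.61 ± 0.36, adjusted p = 0.00533), and in anus at day 6, to 10.6, 7.82 and 7.81 TPM (1.34 ± 0.27, adjusted p = 0.0121). Without mouse 8 the anal call was lost (1.21, adjusted p = 0.0621). Il1rap encodes the accessory chain shared by the IL-1 and IL-33 receptors. Its rectal values were 4.34 to 5.64 TPM at day 0 and 10.3, 16.8 and 13.8 TPM at day 9. It rose there by 1.32 ± 0.18 (adjusted p = 0.000335), the 1 call for it among the 15 comparisons with day 0.

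Il33, the alarmin, was 5.62 to 7.08 TPM in uninjured rectum, 3.13 to 5.15 TPM in uninjured mid-colon and 11.2 to 17.3 TPM in uninjured anus. It was lower in rectum at day 3, at 1.81, 2.01 and 2.35 TPM, with no overlap with day 0 (fell by 1.24 ± 0.12, adjusted p = 0.000732). That fall was not called when all days shared 1 estimate of the spread (adjusted p = 0.536). At day 9 rectum held 66.5, 76.8 and 94.4 TPM (3.46 ± 0.15, adjusted p = 1.03e-06) and mid-colon 12.8, 26.8 and 25.3 TPM (1.98 ± 0.27, adjusted p = 0.000303). By day 14 the rectal values were 1.37, 7.43 and 23.9 TPM and lay on both sides of the uninjured range. In anus Il33 was called at day 6 (36.0, 44.9 and 18.9 TPM, 1.22 ± 0.29, adjusted p = 0.0267) and at day 14 (62.5, 22.4 and 54.1 TPM, 1.64 ± 0.34, adjusted p = 0.0365). Those anal calls were lost in 4 and 5 of 7 fits that left out 1 mouse (adjusted p up to 0.110 and 0.155).

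Il1rl1, which encodes the IL-33 receptor ST2, showed a brief rise in anus. Its anal values were 0.434 to 1.04 TPM at day 0, 3.73, 4.44 and 0.718 TPM at day 3, 155, 119 and 63.0 TPM at day 6, and 0.526, 0.616 and 2.33 TPM at day 9. The 3 samples of day 6 stood far above every other anal sample, of which the highest held 6.15 TPM. The rise from day 0 to day 6 was 5.97 ± 0.30 (adjusted p = 0.000108) and the fall from day 6 to day 9 was -5.72 ± 0.40 (adjusted p = 0.00279). It was the member called between days 6 and 9 of anus, 1 of 9 tested, where 0.241% of all tested genes were called. Too few samples of day 9 reached 1 TPM for Il1rl1 to be tested without its values of day 6, so this share is a description.

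In rectum Il1rl1 lasted longer. It was 0.160 to 0.747 TPM at day 0, 13.9, 6.18 and 117 TPM at day 6, 62.8, 61.0 and 56.1 TPM at day 9, 1.12, 26.5 and 30.2 TPM at day 14 and 16.1, 8.22 and 1.28 TPM at day 20. The rise was 4.15 ± 0.79 at day 6 (adjusted p = 0.00402) and 5.54 ± 0.17 at day 9 (adjusted p = 2.34e-07). The values of day 9 were close together, while those of days 6, 14 and 20 varied widely between mice. At day 14 (3.22 ± 0.86, adjusted p = 0.0432) and day 20 (2.44 ± 0.59, adjusted p = 0.0451) the calls were lost in 6 of 7 fits that left out 1 mouse (adjusted p up to 0.160 and 0.124). Mid-colon held 6.58, 9.05 and 8.01 TPM at day 9 (2.88 ± 0.18, adjusted p = 5.72e-06).

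Il18 ran the other way. In rectum it was 182, 178, 172 and 150.4 TPM at day 0, 426, 374 and 347 TPM at day 3, and 256, 277 and 238 TPM at day 6. At day 9 it was 49.1, 67.1 and 36.3 TPM, below every other rectal sample. It returned to 206, 107 and 145 TPM at day 14 and 218, 190.2 and 234 TPM at day 20. The rise was 1.16 ± 0.10 at day 3 (adjusted p = 0.000372) and 0.59 ± 0.10 at day 6 (adjusted p = 0.00241), and at day 9 Il18 fell by 1.77 ± 0.19 (adjusted p = 9.40e-05). Mid-colon held 196 to 223 TPM at day 0 and 399, 333 and 245 TPM at day 3, which was not called (0.61 ± 0.16, adjusted p = 0.195). It held 408, 303 and 371 TPM at day 6 (0.78 ± 0.13, adjusted p = 0.00625) and 101, 92.9 and 132 TPM at day 9 (fell by 0.95 ± 0.15, adjusted p = 0.000762). Colonocyte markers moved with it in part, from 11670 to 13060 TPM in uninjured rectum to 15020 to 16730 TPM at day 3 and 4441 to 5557 TPM at day 9. At day 20 of rectum they were 9174 to 11540 TPM, below day 0, while every Il18 value was above day 0 (not called). In mid-colon at day 6, where Il18 rose, they were 11910 to 14170 TPM, inside the uninjured range of 11830 to 14820 TPM. Their part in the result was not tested. In anus Il18 was 53.1 to 108 TPM at day 0 and 27.6 to 62.6 TPM at day 9, which was not called (-0.89 ± 0.31, adjusted p = 0.151).

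Il18r1, the IL-18 receptor chain, was under 2.2 TPM in every mid-colon and rectal sample. It did not pass the low-value filter in rectum or mid-colon against day 0. In anus it was 0.666 to 1.30 TPM at day 0, 0.312 to 0.427 TPM at day 3 and 0.537 to 0.574 TPM at day 6, both below day 0 without overlap, and 0.477 to 0.817 TPM at day 9. These days were not tested because of the filter. It was then 6.40, 3.86 and 4.54 TPM at day 14 and 2.84, 6.41 and 4.73 TPM at day 20. The anal rise was 1.56 ± 0.24 at day 14 (adjusted p = 0.0131) and 1.46 ± 0.27 at day 20 (adjusted p = 0.0464). The day 14 call was lost without mouse 16 (1.59, adjusted p = 0.0532), and the day 20 call in 6 of 7 such fits (adjusted p up to 0.193). At days 14 and 20 its chromosomal neighbour Il1rl1 held 1.27 to 6.15 TPM in anus.

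**Figure D2:**
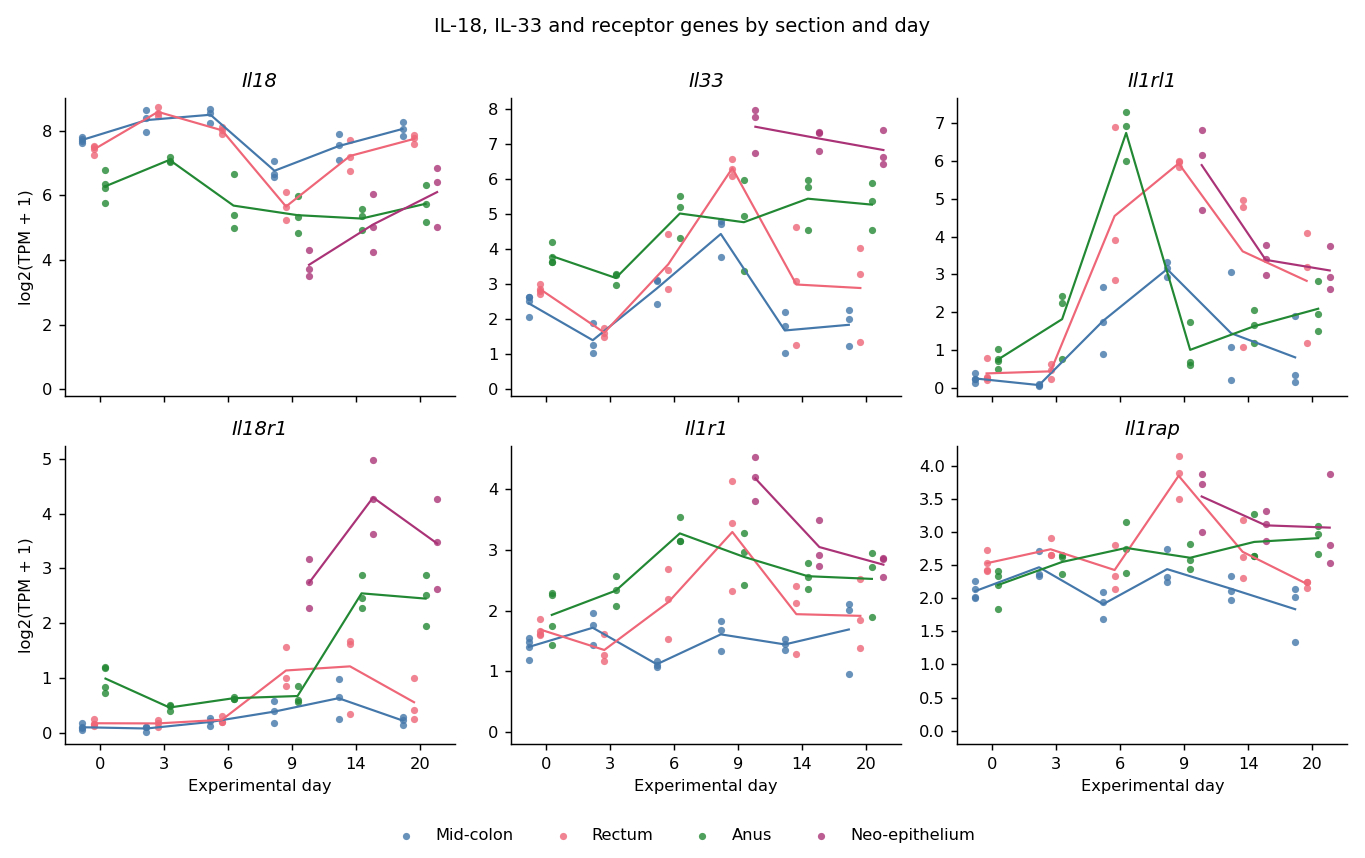
Level of Il18, Il33, Il1rl1, Il18r1, Il1r1 and Il1rap as log2(TPM + 1) against experimental day (drawn as categories), 1 point per sample, with lines through group means, for the 4 sections. Il18 dips at day 9 in rectum (36.3 to 67.1 TPM) and mid-colon (92.9 to 132 TPM), Il1rl1 spikes in anus at day 6 (63.0 to 155 TPM), and Il33 and Il18r1 are highest in neo-epithelium.

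Counted over the day 0 comparisons, members were called most in rectum at day 9. There, 9 of 10 members were tested and 9 called, 8 higher and 1 lower. Of all genes tested, 53.5% were called, 33.5% higher and 20.0% lower. Il1a, Il1b, Il1r2 and Il1rl1 were under 1 TPM in every uninjured rectal sample, so they passed the filter only through their injured values, and their share is a description. The members' median log2 difference was 3.46 and that of all tested genes 0.13. At day 6, 6 of 9 were called, all higher (48.7% of all genes, medians 0.72 and -0.27), and at day 3, 2 of 5 (6.62%). At day 14, 3 of 8 were called (15.8%) and at day 20, 1 of 7 (7.68%). Without mouse 14, whose rectum was low for Il1a, Il1b and Il33, 7 members were called at day 14, and without mouse 19 the count at day 20 was 5. Without any 1 of the other mice of day 0 or day 20 it was 0.

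In mid-colon the counts were 0 of 5 at day 3 (0.375% of all genes), 2 of 6 at day 6 (14.9%), 6 of 9 at day 9 (43.4%), 2 of 7 at day 14 (4.36%) and 0 of 6 at day 20 (1.56%). At an unadjusted p under 0.05, limma gave 2 members at day 3 (Il18 and Il33) and 1 at day 20 (Il1b). In uninjured mid-colon Il1a, Il1b, Il1r2 and Il1rl1 were under 1 TPM in every sample too and were tested only through their injured values, so these shares are descriptions as well. Leaving out mouse 9 at day 6 or mouse 14 at day 14 raised the count to 4, and leaving out mouse 19 at day 20 raised it to 2. In anus the counts were 0 of 9 at day 3 (0.044%), 4 of 9 at day 6 (15.0%, with 8.64% higher and 6.37% lower), 0 of 8 at day 9 (5.09%), 3 of 10 at day 14 (4.27%) and 2 of 10 at day 20 (1.46%). Il1rl1 and Il18r1 had too few uninjured anal samples at 1 TPM to pass the filter without their injured values. At an unadjusted p under 0.05, limma gave 4 members in anus at day 3 and 3 at day 9. The count fell to 2 without mouse 8 at day 6 and to 1 without mouse 2, 14 or 16 at day 14, and rose to 2 without mouse 11 at day 9. At day 20 it was 1 without mouse 1 and 0 without mouse 2, 3, 4, 18 or 19.

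**Figure D3:**
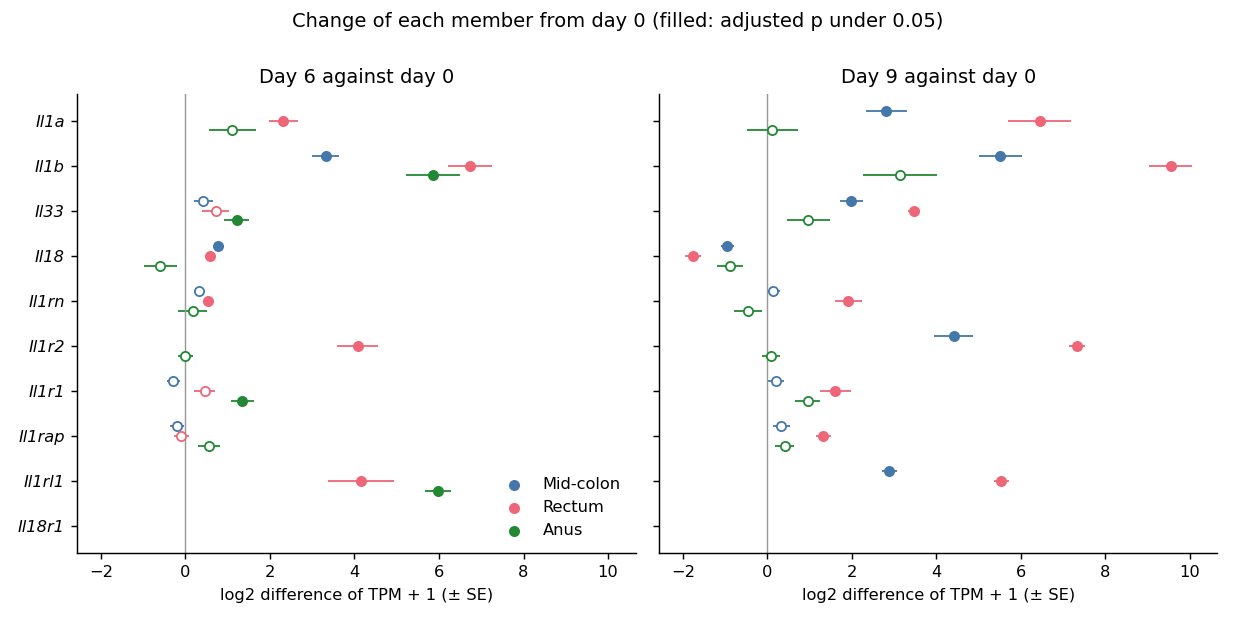
Log2 difference of TPM + 1 from day 0 (x axis, point ± SE) for each member in mid-colon, rectum and anus at day 6 (left) and day 9 (right). Filled points passed an adjusted p under 0.05 (limma, Benjamini-Hochberg), and members below the low-value filter have no point. In rectum at day 9 Il1b lies at 9.54 and Il18 at -1.77, and for Il1rl1 the anal point of day 6 (5.97) lies beyond the rectal point of day 9 (5.54).

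Neutrophil and macrophage markers moved with these changes in rectum. Of 6 neutrophil markers, 2 averaged at least 1 TPM in uninjured rectum and 6 did at day 9, and none of the 6 was at 0 in all samples of either group. Their summed level was 605 to 737 TPM at day 0, most of it Ly6g (mean 639 TPM), and 12600 to 14470 TPM at day 9. In mid-colon the sum was 532 to 957 TPM at day 0 and 1458 to 3256 TPM at day 9. In anus it was 524 to 1480 TPM at day 0 and 945 to 3153 TPM at day 9, ranges that overlap. S100a8 went from at most 1.27 TPM to 4504 to 6975 TPM in rectum, and Csf3r, the receptor for granulocyte colony-stimulating factor, from at most 0.258 TPM to 45.2 to 96.7 TPM. The 6 macrophage markers summed to 109.8 to 130.1 TPM in rectum at day 0 and 605 to 861 TPM at day 9. The part of these cells in the members' levels was not tested.

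The difference between responses was tested directly. At day 9 the change from day 0 was larger in rectum than in mid-colon for 7 of 9 members tested, where 6.55% of all genes were called. Il1a, Il1b, Il1r2 and Il1rl1 were under 1 TPM in every uninjured sample of both sections. They were tested only through their injured values, so this share is a description. The difference between the changes was 4.03 ± 0.81 for Il1b (adjusted p = 0.00735), 3.64 ± 0.99 for Il1a (adjusted p = 0.0424), 2.92 ± 0.56 for Il1r2 (adjusted p = 0.00551), 2.65 ± 0.23 for Il1rl1 (adjusted p = 4.10e-05) and 1.78 ± 0.37 for Il1rn (adjusted p = 0.00924). Il33 (1.48 ± 0.32) and Il1rap (0.99 ± 0.25) were called too, at adjusted p = 0.0124 and 0.0284. Leaving out 1 mouse ended the call of Il1a and of Il1rap in 5 of 7 fits each (adjusted p up to 0.298 and 0.185) and that of Il33 in 3 of 7 (up to 0.0554). With a pseudocount of 0.1 TPM, Il1a, Il1r2 and Il1rap were not called (adjusted p = 0.172, 0.159 and 0.0584). Il18 (-0.81 ± 0.25, adjusted p = 0.0696) and Il1r1 (1.40 ± 0.43, adjusted p = 0.0700) missed the threshold. With mouse 13 left out 2 members were called, and without mouse 1 or 3 there were 4. At day 6 the same test called 0 of 9 members and 0.0% of 12986 genes, with 5 members and 730 genes at an unadjusted p under 0.05 by limma. With the mouse as a block, since sections came from the same animals, Il1b (3.42, adjusted p = 0.000906), Il1a (1.41, adjusted p = 0.0320) and Il1r2 (2.58, adjusted p = 0.0435) were called at day 6, among 76 of the 12986 genes.

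Anus and rectum were set against each other in the same way. At day 6 the change of Il1r2 was 4.07 lower in anus, 1 of 9 members called, against 21.5% of all genes (-4.07 ± 0.56, adjusted p = 0.000279). Without mouse 10, 4 members were called, and without mouse 9 there were 2. At day 9, 8 of 10 members had a lower change in anus, where 19.9% of all genes were called. Il1rl1 and Il18r1 had too few uninjured samples at 1 TPM to be tested without their injured values, so this share is a description. The difference was -7.24 ± 0.29 for Il1r2 (adjusted p = 1.05e-08), -6.40 ± 1.13 for Il1b (adjusted p = 0.00118), -6.33 ± 1.06 for Il1a (adjusted p = 0.000785) and -5.28 ± 0.36 for Il1rl1 (adjusted p = 1.05e-06). It was -2.50 for Il33, -2.38 for Il1rn, -1.28 for Il18r1 and -0.91 for Il1rap (adjusted p = 0.00786, 0.00385, 0.00454 and 0.0304). The Il1rap call was lost in 4 of 7 fits that left out 1 mouse (adjusted p up to 0.107). Il18 was called only with the mouse as a block (0.87, adjusted p = 0.0336). The rectal samples serve both comparisons of day 9, which are therefore not independent.

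The course within rectum was tested between injured days. From day 6 to day 9, 7 of 9 members were called (37.9% of all genes), with Il1a higher by 4.13 ± 0.89, Il1r2 by 3.25 ± 0.54 and Il33 by 2.75 ± 0.37, and Il18 lower by 2.36 ± 0.22 (adjusted p = 0.00837, 0.00276, 0.00119 and 0.000497). Il1rap was higher by 1.42 ± 0.26 (adjusted p = 0.00409). Il1b (2.81 ± 0.78) and Il1rn (1.39 ± 0.35) were called too (adjusted p = 0.0235 and 0.0165). The calls of Il1b and Il1rn were lost after median-ratio scaling (adjusted p = 0.0686 and 0.101), which took the median of all tested genes from 0.37 to 0.04, and in 4 of 6 fits that left out 1 mouse. From day 9 to day 14, 2 of 10 were called (8.04%): Il18 was higher by 1.56 ± 0.31 (adjusted p = 0.0327) and Il33 lower by 3.33 ± 0.75 (adjusted p = 0.0428). Without mouse 11, 12 or 13 the count was 0, and without mouse 15 or 16 it was 1. From day 9 to day 20, 8 of 10 were called (20.8%), 7 lower and Il18 higher by 2.09 ± 0.24 (adjusted p = 0.00280). The 2 not called there were Il1r1 (-1.38 ± 0.49, adjusted p = 0.0804) and Il18r1 (-0.58 ± 0.30, adjusted p = 0.208). Without mouse 13 the count was 3, and without mouse 12 it was 5. Too few samples of day 20 reached 1 TPM for Il1a and Il1r2 to be tested without their values of day 9. The share from day 9 to day 20 is thus a description.

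Before injury the sections already differed. Between uninjured anus and rectum, 5 of 7 members tested were called, where 60.3% of all genes were. Il1a and Il1r2 were under 1 TPM in every uninjured rectal sample and were tested only through their anal values. Il1r2 was higher in anus by 5.83 ± 0.16, Il1a by 2.32 ± 0.18 and Il33 by 0.95 ± 0.17 (adjusted p = 4.04e-08, 3.56e-06 and 0.000905), each in 4 of 4 mice. Il18 was lower by 1.14 ± 0.19 and Il1rn by 1.12 ± 0.18 (adjusted p = 0.000684 and 0.000522), again in 4 of 4 mice. Between uninjured rectum and mid-colon, 1 of 5 was called against 1.79% of all genes: Il1rn was higher in rectum by 0.57 ± 0.11 (adjusted p = 0.0346). That call was lost on leaving out any of the 4 mice (adjusted p up to 0.252) and after median-ratio scaling (adjusted p = 0.152), where the median of all genes went from 0.21 to 0.02.

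The neo-epithelium combined high Il33 with low Il18 RNA. Il33 was 106, 249 and 219 TPM at day 9, 163, 111 and 158 TPM at day 14 and 85.2, 169.9 and 99.1 TPM at day 20. In 9 of 9 mice it was above both the rectum (1.37 to 94.4 TPM) and the anus (9.42 to 62.5 TPM) of the same animal. The difference was 3.10 ± 0.51 from rectum (adjusted p = 0.000112) and 2.00 ± 0.33 from anus (adjusted p = 8.53e-05). Il18 was 10.4 to 114.7 TPM in neo-epithelium and below the rectum of the same mouse in 9 of 9 (-1.85 ± 0.26, adjusted p = 2.19e-05). Against anus it was higher in 3 of 9 mice and not called (-0.45 ± 0.33, adjusted p = 0.246).

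Of the 5 receptor genes, Il18r1 and Il1r1 were higher in neo-epithelium than in both other sections over days 9 to 20 together. Il1r2 and Il1rap were called in neither comparison (adjusted p of 0.0518 or more), and Il1rl1 was not called against rectum (0.00 ± 0.48, adjusted p = 0.998). Il18r1 was 3.84, 8.04 and 5.78 TPM at day 9, 11.4, 30.6 and 18.2 TPM at day 14 and 10.2, 18.1 and 5.15 TPM at day 20. It exceeded both other sections in 9 of 9 mice (2.53 ± 0.29 from rectum and 1.61 ± 0.24 from anus, adjusted p = 3.84e-06 and 3.20e-05). It was tested only through its neo-epithelium values, since too few rectal or anal samples reached 1 TPM. Il1r1 was 22.1, 13.0 and 17.4 TPM at day 9 and 4.88 to 10.2 TPM later. It was higher than in rectum in 9 of 9 mice (0.94 ± 0.23, adjusted p = 0.00282) and than in anus in 8 of 9 (0.67 ± 0.19, adjusted p = 0.00682). Regulatory T cell markers (Foxp3 and Ikzf2) summed to 6.61 to 18.1 TPM in neo-epithelium, against 2.18 to 3.95 TPM in rectum of the same days and 2.04 to 7.41 TPM in anus. In neo-epithelium nearly all of that sum was Ikzf2 (6.52 to 17.9 TPM), while Foxp3 was 0.0176 to 0.669 TPM there and 0.0652 to 1.02 TPM in rectum of the same days, and their part was not tested.

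In all, 4 of 10 members were called between neo-epithelium and rectum over days 9 to 20 (42.9% of all genes) and 7 of 10 between neo-epithelium and anus (59.8%), all 7 higher. Too few rectal samples of Il18r1, Il1a and Il1r2, and too few anal samples of Il18r1 and Il1rl1, reached 1 TPM. These were tested only through their neo-epithelium values, so both shares are descriptions. Against anus, the calls included 4 members not called against rectum: Il1a (1.24 ± 0.50, adjusted p = 0.0404), Il1b (2.37 ± 0.78, adjusted p = 0.0155), Il1rn (1.43 ± 0.26, adjusted p = 0.000167) and Il1rl1 (2.54 ± 0.49, adjusted p = 0.000312). Both comparisons use the same neo-epithelium samples, and the difference between them was not tested. Within single days of 3 mice, Il1r1 was not called against rectum on any of the 3 days (adjusted p = 0.199, 0.0769 and 0.189 at days 9, 14 and 20), while Il33 and Il18r1 were called against rectum on each. Against anus, Il1r1 was not called at day 14 or day 20 alone (adjusted p = 0.163 and 0.629). Nor were Il18r1 and Il1rl1 at day 20 alone (adjusted p = 0.173 and 0.158). The Il1a call was lost after median-ratio scaling (adjusted p = 0.0839) and in 4 of 9 fits that left out 1 mouse, and the Il1b call without mouse 13 (1.89, adjusted p = 0.0530). Neutrophil markers, which include S100a8 and S100a9, summed to 7231 to 19060 TPM in neo-epithelium at day 9, and their part in the members' levels was not tested. From day 9 to day 20 of neo-epithelium, 3 of 10 members were called (26.2%). Il1rl1 was lower by 2.78 ± 0.56 (adjusted p = 0.0155), from 25.2, 69.9 and 110.1 TPM to 5.14, 6.66 and 12.6 TPM, and Il1r1 lower by 1.42 ± 0.22 (adjusted p = 0.00743). Il18 was higher by 2.25 ± 0.48 (adjusted p = 0.0181), from 18.8, 10.4 and 12.3 TPM to 114.7, 31.7 and 84.0 TPM, while colonocyte markers went from 3.70 to 438 TPM to 2218 to 5494 TPM. Without mouse 12, 13 or 17 the count was 1.

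**Figure D4:**
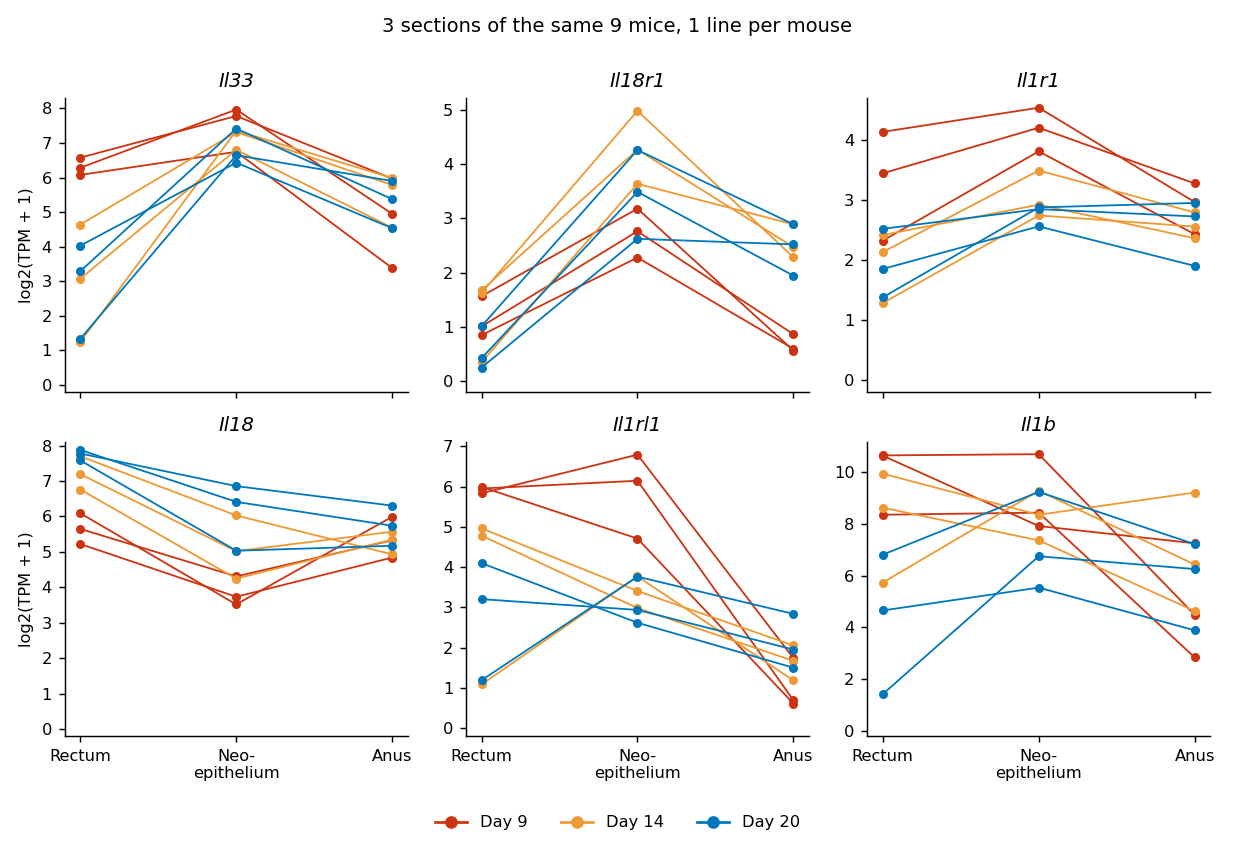
Level of Il33, Il18r1, Il1r1, Il18, Il1rl1 and Il1b as log2(TPM + 1) in rectum, neo-epithelium and anus, with 1 line per mouse coloured by day (9 mice). Every line for Il33 and Il18r1 peaks at the neo-epithelium, every line for Il18 drops from rectum to neo-epithelium, and the lines for Il1b cross.

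The members differed in which transcripts carried their signal. Transcripts were matched by identifier to the GENCODE vM21 annotation. The leading Il1rl1 transcript is a short form of 337 codons that ends at 40448148, before the last exons of the long form of 567 codons, which ends at 40465415. A short form of ST2 is known as a secreted decoy for IL-33. In the 28 samples with at least 5 TPM of Il1rl1, the short form held 76.0 to 94.9% of the gene's TPM (median 93.2%) and the long forms 5.08 to 10.2%. At day 6 of anus the short form was 59.1, 113 and 147 TPM (lowest, median and highest) and the leading long form 3.96, 6.15 and 8.18 TPM. The short form was thus the main one in each section that reached this level.

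Il1rn has an upstream start at 24336853 and a downstream start, where its leading transcript begins at 24345310. Transcripts of the downstream start, led by one of 178 codons, held 61.0 to 87.0% of the gene's TPM over all 66 samples (median 75.7%). In rectum their share was 74.7 to 78.7% at day 0 and 83.6 to 86.3% at day 9. The leading transcript of the downstream start went from 75.1 to 92.0 TPM to 190.1 to 622 TPM there, and that of the upstream start, with 159 codons, from 29.5 to 33.9 TPM to 39.0 to 88.3 TPM. Both starts were thus higher at day 9, and the shares of the 2 days did not overlap.

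Il33 was carried mainly by the transcript of the downstream start shown above and by an annotated 377-base fragment of the upstream start. In the 49 samples with at least 5 TPM of Il33, the downstream transcript held 0.00967 to 70.6% (median 42.0%). In uninjured rectum it was 0.0697 to 2.51 TPM (median 0.0814 TPM) and at day 9 23.6 to 34.3 TPM, and in neo-epithelium at day 9 it was 45.1 to 127 TPM. The full-length form of the upstream start was 11.4 to 15.6 TPM in neo-epithelium at day 9. Both full-length forms encode 266 codons. Transcript shares from short single-end reads are estimates, and none was tested.

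**Figure D5:**
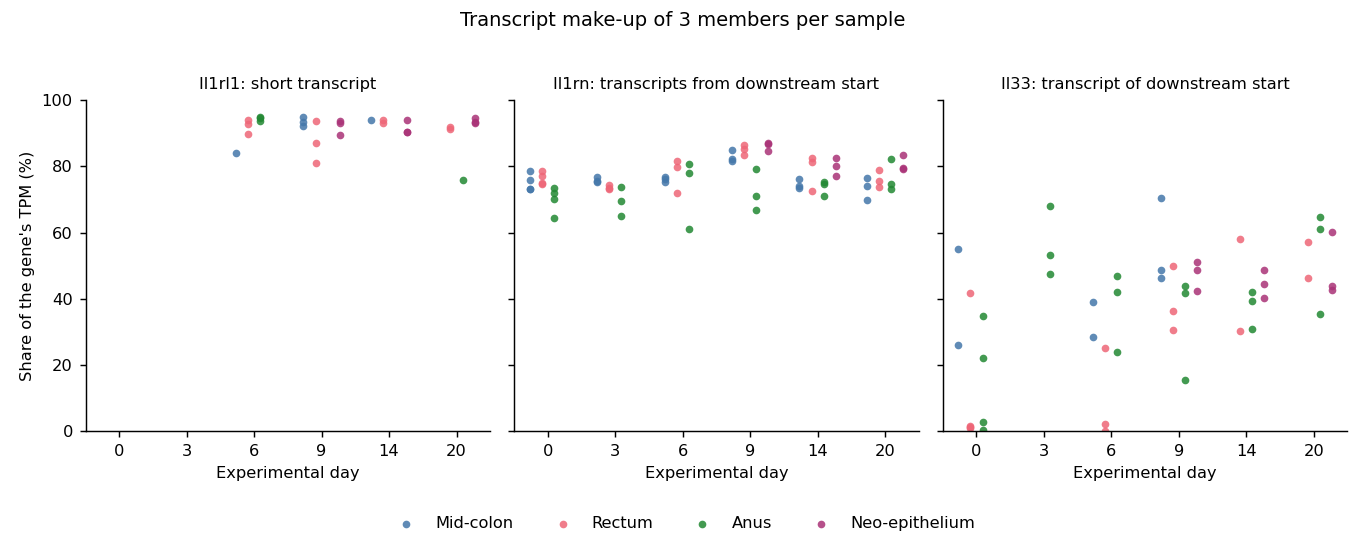
Share of a gene's TPM (y axis, percent) held by the short Il1rl1 transcript, by Il1rn transcripts of the downstream start and by the Il33 transcript of the downstream start, against experimental day, 1 point per sample with at least 5 TPM of the gene, coloured by section. The Il1rl1 points lie between 76.0 and 94.9%, the rectal Il1rn points of day 9 between 83.6 and 86.3%, and the Il33 points spread from near 0 to 70.6%.

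Among relatives of the members, the IL-36 ligands were mainly anal before injury. Uninjured anus was higher than rectum for Il36a (5.17 ± 0.44), Il36b (4.16 ± 0.32), Il36g (4.42 ± 0.22) and the antagonist Il36rn (4.94 ± 0.39), with adjusted p-values of 8.57e-06, 3.59e-06, 2.34e-07 and 4.52e-06. Of the 9 relatives, 8 were tested there and 8 called, 6 higher, where 60.3% of all genes were called. Only 3 of the 9 passed the low-value filter at day 3 of rectum. Some of the 8 were thus tested only through anal values, and their share is a description. In rectum at day 9, Il36g rose by 5.25 ± 0.36 (adjusted p = 9.03e-06), Il18bp, which encodes the soluble inhibitor of IL-18, by 3.84 ± 0.37 (adjusted p = 5.58e-05) and Il18rap, the second IL-18 receptor chain, by 2.55 ± 0.22 (adjusted p = 3.20e-05). Sigirr, an inhibitory receptor of the family, fell by 0.59 ± 0.17 (adjusted p = 0.0185). In all, 5 of 6 relatives tested were called there, 4 higher, where 53.5% of all genes were called and 33.5% were higher. At day 3 of rectum 3 of the 9 relatives passed the low-value filter. Some of the 6 were thus tested at day 9 only through values of that day, and their share is a description. Neo-epithelium held less Il36rn than anus (-4.36 ± 0.29, adjusted p = 1.59e-09) and less Il36a (-2.84 ± 0.38, adjusted p = 8.15e-06), while Il36g was not called (-0.16 ± 0.29, adjusted p = 0.660).

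In rectum at day 9, 7 of 11 signalling genes were called, all higher, where 53.5% of all genes were called (33.5% higher, 20.0% lower). Among them were Myd88, the adaptor of these receptors (1.77 ± 0.13, adjusted p = 1.46e-05), and Irak3, an inhibitory kinase family member (2.97 ± 0.19, adjusted p = 7.49e-06). Of 8 genes of cytokine processing and the inflammasome, 3 were higher and 3 lower. Nlrp3, an inflammasome sensor, rose by 4.61 ± 0.45 (adjusted p = 5.50e-05), while Casp1, the enzyme that cuts both cytokines, fell by 0.92 ± 0.20 (adjusted p = 0.00497) and Nlrp6, a sensor of gut epithelium, fell by 2.54 ± 0.17 (adjusted p = 7.29e-06). Of 10 genes known to respond to IL-1, 10 were higher, with Cxcl2, a neutrophil chemokine, at 8.43 ± 0.59 and Lcn2 at 7.46 ± 0.21 (adjusted p = 1.03e-05 and 1.15e-07). At day 3 of rectum 5 of these 10 passed the low-value filter. The others were tested at day 9 only through values of that day, so their share is a description. In anus at day 6, 7 of 10 response genes were higher, such as Cxcl1 (5.63 ± 0.33, adjusted p = 0.000113). Of the processing and inflammasome genes, 5 of 7 tested were lower, such as Nlrp6 (-2.74 ± 0.46, adjusted p = 0.00601). Of all genes, 8.64% were higher and 6.37% lower there, and median-ratio scaling turned the split from 1186 higher and 874 lower to 1155 and 1370. Colonocyte markers were lower in those anal samples, as given above, and their part was not tested. At day 3 of anus 5 of the 10 response genes passed the low-value filter. The others were tested at day 6 of anus only through values of that day, so that share is a description too.

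Genes most like each member were found by Pearson's r of group means of log2(TPM + 1) over the 21 groups, among 11213 genes. They were Csf3r (0.974) and Cxcl2 (0.971) for Il1b, G0s2 (0.976) and Stx11 (0.971) for Il1a, and Tnfaip2 (0.970) and S100a9 (0.969) for Il1r2. They were Mmp13 (0.965) and Mmp10 (0.959), metalloproteinases, for Il1rl1, and Phldb2 and Adam8 (both 0.946) for Il33. They were Ndufa6 (0.962) and Tnni1 (0.957) for Il18, Vnn1 and Serpinb9 (both 0.974) for Il18r1, Arpc5 (0.927) and Antxr2 (0.915) for Il1rn, Arxes2 (0.967) and Ackr1 (0.959) for Il1r1, and Spred1 (0.949) and N4bp1 (0.941) for Il1rap. The groups share mice and libraries, so these values only describe likeness.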

How the data were processed

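RNA from 66 sections of 19 mice was sequenced as stranded mRNA libraries with single-end reads of 75 bases, per the labels' protocols. The submitters' processing notes name CASAVA, kallisto and the mm10 build. The deposited table holds 1 signal value per transcript and sample, in TPM by its column sums. After 1318 repeated rows with equal values were dropped, each sample summed to 1000000 within 0.22, and 88198 transcripts were summed to 30452 genes. The transcript annotation release behind the table is not given in the sources used here. No counts were given, so depth is unknown and no counting interval can be computed.

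Values were taken as log2(TPM + 1). A gene was tested if the number of samples at or above 1 TPM was at least the size of the smaller group. The test was limma 3.58.1 in R 4.3.3 (empirical Bayes with a trend) with Benjamini-Hochberg adjustment over all tested genes and calls at an adjusted p under 0.05, in 28 comparisons. Fits used only the groups compared, with day as a covariate for neo-epithelium and no term for the mouse in the main fits. Sums and figures were made with pandas 2.3.3, numpy 2.4.6 and matplotlib 3.10.9 under Python 3.11.15. The fitting code was tested on simulated data. Alternatives were a pseudocount of 0.1 TPM, no filter, median-ratio scaling, all days of a section in 1 fit, single days, leaving out each mouse, and the mouse as a block. The text names the 10 members, genes of the pathway and marker lists, and for each member the 2 genes with the most similar group means. Ctla4 was left out of the regulatory T cell markers because its symbol has more than 1 gene identifier. The members and lists were chosen with earlier results of these data known.

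The mouse number in the labels pairs sections of 1 animal. Deviations from the group means of same-numbered samples correlated at a mean r of 0.0309 to 0.275 over the 8 comparisons that share mice.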

Additional observations from a re-analysis of the deposited data

Results flagged for a closer look

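In 1 of 30 groups of 4 samples tested, 1 sample stood far from the others: Il1rl1 in uninjured rectum, where mouse 4 held 0.747 TPM and the other mice 0.160 to 0.224 TPM. Chance alone marks about 1 group in 20 in this way.

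The remaining results were differences between the responses of 2 sections, each by an interaction term. At day 6 the change of Il1r2 was lower in anus than in rectum (-4.07). At day 9 the change was larger in rectum than in mid-colon for Il1a (3.64), Il1b (4.03), Il1rn (1.78), Il1r2 (2.92), Il1rap (0.99), Il1rl1 (2.65) and Il33 (1.48). At day 9 it was lower in anus than in rectum for Il1a (-6.33), Il1b (-6.40), Il1rn (-2.38), Il1r2 (-7.24), Il1rap (-0.91), Il1rl1 (-5.28), Il18r1 (-1.28) and Il33 (-2.50). All are differences of log2(TPM + 1) changes, and both comparisons of day 9 use the same rectal samples. The anal sections of day 9 held fewer colonocyte transcripts (20.7 to 26.4 TPM summed) than those of day 0 (1208 to 3808 TPM), and the part of this in the differences was not tested.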

How the results depend on the processing

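Of 94 member calls, 56 were kept under all alternatives run, 65 in every fit that left out 1 mouse and 64 under every other alternative, and 0 changed sign. With all days of a section in 1 fit, the count of members called was 1 at day 20 of mid-colon, 1 at day 3 of rectum, 1 at day 9 of anus and 6 from day 9 to day 14 of rectum. With a pseudocount of 0.1 TPM it was 2 at day 20 of rectum, 1 at day 20 of anus, 2 for the day 6 response of anus against rectum, 4 for the day 9 response of rectum against mid-colon and 1 from day 9 to day 14 of rectum. With no filter on low values it was 0 at day 20 of rectum, 1 at day 14 of anus, 0 at day 20 of anus, 0 for uninjured rectum against mid-colon, 0 from day 9 to day 14 and 4 from day 9 to day 20 of rectum. With median-ratio scaling it was 2 at day 20 of rectum, 0 for uninjured rectum against mid-colon and 2 for the day 6 response of anus against rectum. On single days, neo-epithelium differed from rectum in 2 members at day 20, and from anus in 4 at day 14 and 2 at day 20. With the mouse as a replicate block, the day 6 response of rectum against mid-colon had 3 members called, Il18 was added to the day 9 response of anus against rectum, and no call was lost.

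Leaving out 1 mouse gave 2 to 4 members in mid-colon at day 6, 2 to 4 at day 14 and 0 to 2 at day 20. In rectum it gave 2 to 7 at day 14 and 0 to 5 at day 20. In anus it gave 2 to 4 at day 6, 0 to 2 at day 9, 1 to 3 at day 14 and 0 to 3 at day 20. It gave 0 in each fit for uninjured rectum against mid-colon. For the responses it gave 0 to 1 (rectum against mid-colon, day 6), 1 to 4 (anus against rectum, day 6) and 2 to 9 (rectum against mid-colon, day 9). It gave 0 to 3 from day 9 to day 14 of rectum, 3 to 8 from day 9 to day 20, and 1 to 4 from day 9 to day 20 of neo-epithelium. The causes of these changes were not tested. Groups of 3 or 4 mice limit the precision, and without counts the sampling error of members under 1 TPM is unknown.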

Other observations

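Rectum and neo-epithelium of the same mouse could differ in state. In mouse 14 at day 14 the rectum held 0.287 TPM of Il1a, 52.25 TPM of Il1b and 1.12 TPM of Il1rl1, while the neo-epithelium held 22.4, 621 and 12.6 TPM. In mouse 19 at day 20 the rectum held 0.106 TPM of Il1a, 1.68 TPM of Il1b and 0.529 TPM of Il1r2, while the neo-epithelium held 9.12, 107 and 31.0 TPM. Each is 1 animal, and no test was run.

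The ratio of Il18 to Il1b TPM was 302 to 2288 in uninjured rectum and 0.0226 to 0.151 at day 9.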
